A study of Mus musculus with 6 samples.

Results

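REST is a zinc finger protein that keeps neuronal genes silent in cells that are not neurons. It binds a DNA element called RE1 near those genes and brings in corepressors: Sin3 complexes at one end of the protein and CoREST at the other. CoREST holds the histone deacetylases HDAC1 and HDAC2 together with LSD1, the histone H3 demethylase encoded by Kdm1a, so an LSD1 inhibitor acts on an enzyme of this repressor complex. The genes described here are 33 of the 22942 genes in the tables: Rest itself and 32 neuronal genes known as REST targets. Each gene was read from the transcript with the highest mean over the libraries, and all 33 were found.

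The cells were C3H-10T1/2, an established mouse mesenchymal line described in the labels as preadipocytes, grown with 10% serum. Both groups of 3 cultures received the brown fat mixture for 72 h, that is 1 uM rosiglitazone, 1 nM T3, insulin at 20 nM, 125 uM indomethacin, dexamethasone at 1 uM and 0.5 mM isobutylmethylxanthine. Insulin, T3 and rosiglitazone stayed in the medium after that, and RNA was taken at day 6 of differentiation. The groups differed in treatment: the solvent DMSO, or 4 uM of the LSD1 inhibitor 611 (Cpd A), from seeding by 1 label and from 12 h after it, 48 h before induction, by another. The values are RPKM, reads scaled to transcript length and library size, given as mean ± SD over n = 3 libraries. Library totals worked out from the steps between low values lay between 3.88e+07 and 4.12e+07 reads. A p-value here measures the spread between these 3 cultures per group of a single line and treatment.

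Most of the 33 genes were low in both groups. Of the 33, 4 were at 0 in all 6 libraries (12.1%, against 22.7% of all genes), 26 stayed below 1 RPKM in every library, and 15 reached 0.1 RPKM in at least 3 libraries and could be tested. Over all genes 60.3% could be tested, against 45.5% of this set. With 611, 7 of the 15 tested genes rose, Bdnf, Dnm1, Tubb3, Scg2, Scn2a, Stmn2 and Rest, and 2 fell, Unc13a and Kif5a (limma, Benjamini-Hochberg adjusted p below 0.05). Over all 13829 tested genes 41.6% were called higher and 17.7% lower, so the shares in this set, 46.7% and 13.3%, lay near those of the transcriptome. The median log2 fold change was 0.08 for the 15 genes and 0.10 for all tested genes. Log2 fold changes are of RPKM + 1 throughout, so for low genes they are smaller than the ratios of mean RPKM given beside them. Calls that were higher and also had a ratio of mean RPKM of at least 2 numbered 5 of the 15, beside 9.74% of all tested genes. Of the 15, 12 reached 0.1 RPKM in all 6 libraries; Bex1, Syp and Tubb3 reached it in fewer. The counts describe the tested genes and not the list.

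**Figure D1:**
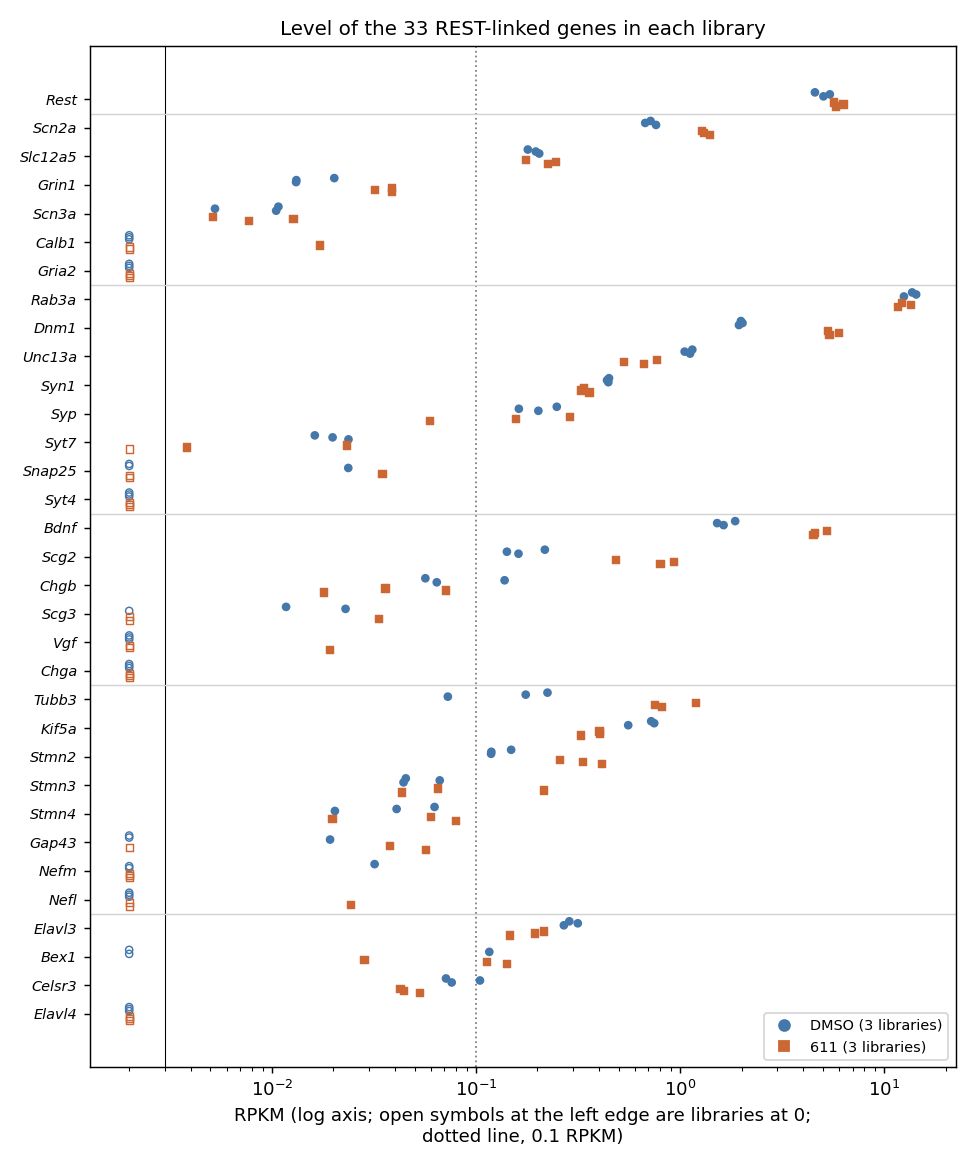
RPKM of each of the 33 genes in each of the 3 DMSO and 3 611 libraries, on a log axis and ordered by role; open symbols at the left edge are libraries at 0, and the dotted line marks 0.1 RPKM. Most genes lie left of 1 RPKM in both groups, with Rab3a, at up to 14.3 RPKM, and Rest the highest.

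RE1 has a left arm with the letters CAGCACC and a right arm with the letters GGACAGC, usually 2 bases apart. RefSeq promoter windows of build GRCm38.p6, from 250 bases before a start site to 50 bases after it, were on hand for 20 of the 33 genes (32 windows) and were searched on both strands. These windows are shown because they are the part of the repressor's known address that can be read beside the values. The left arm, with or without the right, was in 18.8% of the windows of these genes and 7.14% of all windows, and the right arm in 12.5% and 6.56%, where the median GC content was 58.5% and 52.7%. Both arms 2 bases apart with up to 2 mismatches were found in the windows of Celsr3, Gria2 and Syn1, and in 0.773% of all 32851 windows. Both arms without a mismatch, in that order and between 0 and 20 bases apart, were found for Scg2, with no base between them, and for Unc13a, with 8 bases between them, and in 0.07% of all windows. The window of Tubb3 held both arms too, but not in either arrangement. The matched stretches follow, 5′ to 3′ on the strand that carries the left arm, with the letters that match an arm in capitals.
Scg2: ggccgtttCAGCACCGGACAGCtcctcggc
Unc13a: gcttCAGCACCgggggcgcGGACAGCgcct
Celsr3: ctccgttCAGCACCgtGGgCAGCacttctg
Gria2: tcgattttAGCACCgcGGACAGCgctttgg
Syn1: tcggattCAGCACCgcGGtCAGagccttcg

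In GRCm38.p6 the Scg2 stretch lies at chr1:79440019-79440048 (plus strand, opposite to the gene), with the match from 14 bases to 1 base before the start site. The Unc13a stretch lies at chr8:71671725-71671754 (plus strand, opposite to the gene), with the match at bases 8 to 29 of the transcript. The others lie upstream of their genes: Celsr3 at chr9:108825913-108825942 (plus strand), Gria2 at chr3:80802984-80803013 (plus strand, opposite to the gene) and Syn1 at chrX:20921126-20921155 (minus strand). A cAMP response element, TGACGTCA, was in the windows of Scg2, Chgb and Syn1, and in 1.79% of all windows; it and the searches for both arms together were added after the data were seen. A match is a description of these letters, and elements outside the windows were not searched. Of these 5 genes Scg2 rose, Unc13a fell, Syn1 did not pass the test, and Celsr3 and Gria2 were too low to test.

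Rest itself, the repressor, was expressed in both groups. Its levels were 4.58, 5.42 and 5.04 RPKM with DMSO and 5.66, 6.28 and 5.79 with 611. The lowest 611 library lay just above the highest DMSO library. The means were 5.01 ± 0.419 and 5.91 ± 0.327, a ratio of 1.18 (log2 fold change 0.20, SE 0.07, limma adjusted p = 0.0298). That call ended after scaling the libraries by median of ratios, which brings the median over all tested genes from 0.10 to near 0 (Rest log2 fold change 0.07, limma adjusted p = 0.351), and with no filter (0.0527). It also ended without any 1 of 4 libraries: 611 replicate 2 (limma adjusted p = 0.0996) or 3 (0.0555), or DMSO replicate 1 (0.105) or 3 (0.0631). It held with the replicate number as a block (limma adjusted p = 0.00858), and each 611 library was above the DMSO library of the same number.

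As deposited, the genes of the partners of REST rose or did not pass the test. In a list of 27 genes for its corepressors and for the control of REST protein, 19 of 27 rose and 0 fell, with 20 and 0 at an unadjusted p below 0.05; limma was the only tool run. These are 70.4% higher and 0% lower, beside 41.6% and 17.7% of all tested genes. The list's median log2 fold change was 0.26, against 0.10 for all genes. After scaling 10 of 27 were higher and 1 lower, beside 28.5% and 28.7% of all tested genes, with a median of 0.12. Kdm1a, the gene of the inhibited enzyme, went from 9.09 ± 0.331 to 11.3 ± 0.331 RPKM (limma adjusted p = 7.4e-04). Rcor1, the main CoREST gene, went from 7.0 ± 0.103 to 9.30 ± 0.326 RPKM (limma adjusted p = 2.0e-04, and 0.00283 after scaling). The other CoREST genes were less clear. Rcor2 went from 1.71 ± 0.290 to 2.35 ± 0.436 RPKM with overlapping groups (limma adjusted p = 0.0433, and 0.149 after scaling). Rcor3 went from 4.82 ± 0.198 to 5.97 ± 0.623 RPKM (limma adjusted p = 0.0151, and 0.148 after scaling). Of the list, Ctdsp2, a small phosphatase recruited by REST, had the largest log2 fold change, at 39.1 ± 2.27 RPKM with DMSO and 64.0 ± 3.97 with 611 (limma adjusted p = 1.2e-05).

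Among ion channels and transporters, Scn2a was the member that changed. Scn2a encodes a voltage-gated sodium channel of neurons and is a classic REST target. Its levels were 0.717, 0.675 and 0.762 RPKM with DMSO and 1.27, 1.305 and 1.39 with 611, so the groups did not overlap. The ratio of the means, 0.718 ± 0.0438 and 1.32 ± 0.0612, was 1.84 (log2 fold change 0.43, SE 0.06, limma adjusted p = 2.1e-04). Of the 50-base windows of this transcript, 8.09% also occur in other genes, among them Scn3a, Scn9a, Scn1a and Btbd10. Scn3a stood at or below 0.0127 RPKM and Scn1a at or below 0.0234. Scn9a was not found under that symbol, and the level of Btbd10 is not reported here. Slc12a5, the neuronal chloride exporter KCC2, was at 0.193 ± 0.0126 and 0.215 ± 0.0363 RPKM with overlapping groups (limma adjusted p = 0.708).

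The glutamate receptor genes were close to nothing. Gria2, an AMPA receptor subunit, was at 0 in every library, where 3 reads would have been 0.00702 to 0.00745 RPKM. Grin1, the NMDA receptor subunit that all such receptors need, had 3, 2 and 2 reads with DMSO and 6, 5 and 6 with 611, too few to test. Calb1, a calcium-binding protein of neurons, had 3 reads, all in 611 replicate 1. Scn3a had between 2 and 5 reads per library with no separation of the groups.

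Genes of synaptic vesicle release went in different directions. Dnm1 encodes the neuronal dynamin, the GTPase that cuts vesicles from the membrane. It stood at 1.99, 2.02 and 1.94 RPKM with DMSO and 5.26, 5.96 and 5.36 with 611. The libraries of a group were close together and the groups far apart. The means of 1.98 ± 0.0396 and 5.53 ± 0.379 gave a ratio of 2.79 (log2 fold change 1.13, SE 0.06, limma adjusted p = 1.7e-06).

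Unc13a, the Munc13 protein that primes vesicles for release, went the other way. Its levels were 1.15, 1.05 and 1.12 RPKM with DMSO and 0.763, 0.528 and 0.661 with 611, with no overlap. The means of 1.11 ± 0.0487 and 0.651 ± 0.118 gave a 1.70-fold fall (log2 fold change -0.35, SE 0.07, limma adjusted p = 0.0019). In the GENCODE annotation its exons share 495 bases with those of Colgalt1 on the opposite strand, and the sources used here do not say whether the deposited values used strand. Colgalt1 stood at 20.3, 20.4 and 21.8 RPKM with DMSO and 27.6, 27.03 and 27.6 with 611, the opposite direction to Unc13a. At those levels the shared bases alone would hold between 551 and 558 reads in the 611 libraries, more than the about 223 to 320 reads that Unc13a had there over its whole length. In the DMSO libraries they would hold 391 to 430 reads, beside about 429 to 457 for Unc13a.

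The other vesicle genes had smaller differences or none that passed the test. Rab3a, a small GTPase of secretory vesicles, was the most abundant gene of the set, at 13.5 ± 0.939 and 12.4 ± 0.905 RPKM with overlapping groups (limma adjusted p = 0.167). It passed the test as lower with the replicate number as a block (limma adjusted p = 0.0284) and after scaling (0.00879). Syn1, which tethers synaptic vesicles, was at 0.449, 0.439 and 0.445 RPKM with DMSO and 0.336, 0.325 and 0.358 with 611, groups that did not overlap, but it did not pass the test (limma adjusted p = 0.10). It was called lower after scaling (limma adjusted p = 0.0324), with no filter (0.00997) and when its transcripts were summed (0.0340). The vesicle membrane protein gene Syp was at 0.204 ± 0.0434 and 0.167 ± 0.114 RPKM (limma adjusted p = 0.610), and Syt4, a synaptotagmin, was at 0 throughout, where 3 reads would have been 0.0187 to 0.0198 RPKM. Snap25, a fusion protein of the synapse, had 5 reads in all, and the calcium sensor Syt7 was too low to test, at 0.0162, 0.0198 and 0.0237 RPKM with DMSO and 0.0232, 0.00383 and 0 with 611.

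Of the secreted proteins and granule cargo, Bdnf and Scg2 rose. Bdnf encodes a neurotrophin, a secreted growth factor of neurons. It stood at 1.86, 1.52 and 1.63 RPKM with DMSO and 5.21, 4.54 and 4.48 with 611, with no overlap. The means of 1.67 ± 0.174 and 4.75 ± 0.405 gave a ratio of 2.84 (log2 fold change 1.10, SE 0.08, limma adjusted p = 5.0e-06). Its 4 listed transcripts, which share the coding exon and most of their reads, had like values, from 1.22 to 1.86 RPKM with DMSO and from 3.72 to 5.21 with 611.

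Scg2 encodes secretogranin II, a granin packed into dense-core granules, and carries the RE1 arms with no spacer printed above. Its levels were 0.218, 0.142 and 0.162 RPKM with DMSO and 0.483, 0.928 and 0.797 with 611. These came from 21, 14 and 16 reads against 49, 95 and 81 reads. The 611 libraries differed among themselves by almost a factor of 2 but all lay above DMSO, for a ratio of 4.24 (log2 fold change 0.56, SE 0.09, limma adjusted p = 9.6e-04).

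The other members of this group were lower still. Chgb, chromogranin B, had 6, 15 and 7 reads with DMSO and 4, 8 and 2 with 611. Chga, chromogranin A, was at 0 in every library, where 3 reads would have been 0.0387 to 0.0410 RPKM. Scg3, secretogranin III, had 3 reads in each group, and Vgf, a neuropeptide precursor, had 2 reads, both in 611 replicate 3. None of these 4 could be tested.

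In the cytoskeletal group Tubb3 and Stmn2 rose and Kif5a fell. Tubb3, the beta-tubulin used as a neuronal marker, stood at 0.224, 0.175 and 0.0728 RPKM with DMSO and 1.19, 0.747 and 0.809 with 611. The reads were 15, 12 and 5 against 84, 53 and 57, so every 611 library was more than 3 times the highest DMSO library. The ratio of means was 5.82 (log2 fold change 0.72, SE 0.10, limma adjusted p = 2.1e-04). No 50-base window of its transcript occurs in another gene's transcript, the other beta-tubulins included.

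Stmn2, or SCG10, a microtubule regulator of growing axons and a textbook REST target, had 11, 9 and 9 reads with DMSO and 20, 26 and 32 with 611. As levels these were 0.149, 0.119 and 0.119 RPKM against 0.257, 0.332 and 0.411, again without overlap. The ratio of means was 2.59 (log2 fold change 0.24, SE 0.06, limma adjusted p = 0.0084). Its relatives Stmn3, with 2, 3 and 2 reads against 3, 10 and 2, and Stmn4, with 3, 2 and 1 against 3, 1 and 4, were too low to test.

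Kif5a, the neuronal kinesin-1 heavy chain that moves cargo along axons, went from 0.722, 0.747 and 0.557 RPKM with DMSO to 0.401, 0.403 and 0.326 with 611. The groups did not overlap, and the means of 0.675 ± 0.103 and 0.376 ± 0.0439 gave a 1.79-fold fall (log2 fold change -0.28, SE 0.07, limma adjusted p = 0.0053). The neurofilament genes Nefl and Nefm and the growth cone gene Gap43 had 3, 4 and 6 reads over all 6 libraries.

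The remaining members are Elavl3, Elavl4, Celsr3 and Bex1. Elavl3, a neuronal RNA-binding protein of the Hu family, was at 0.287, 0.315 and 0.270 RPKM with DMSO and 0.214, 0.193 and 0.146 with 611. The groups did not overlap, but the difference did not pass the test (limma adjusted p = 0.0775); it was called lower after scaling (0.0379), with no filter (0.0126) and with no trend in the variance (0.0451). Elavl4 was at 0 in every library, where 3 reads would have been 0.0181 to 0.0192 RPKM. Celsr3, a cadherin that guides axons, had 32, 48 and 35 reads with DMSO and 20, 21 and 25 with 611, but at no more than 0.105 RPKM it did not enter the test. Bex1 had 14 reads in all (limma adjusted p = 0.373), and 32.8% of its 50-base windows occur in other genes of its family.

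The overlap of the libraries was counted as well as the test. All 3 libraries with 611 lay above all 3 with DMSO for 7 of the 15 tested genes, beside 45.8% of all tested genes. They lay below for 4, Unc13a, Kif5a, Elavl3 and Syn1, beside 20.4%. After scaling 6 genes were called higher, where the background was 28.5%, and 5 lower, Unc13a, Kif5a, Rab3a, Syn1 and Elavl3, where it was 28.7%. Without any filter 14 of the 18 untested genes had values to fit and 0 were called; 1, Celsr3, had an unadjusted p below 0.05 (limma adjusted p = 0.0520).

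**Figure D2:**
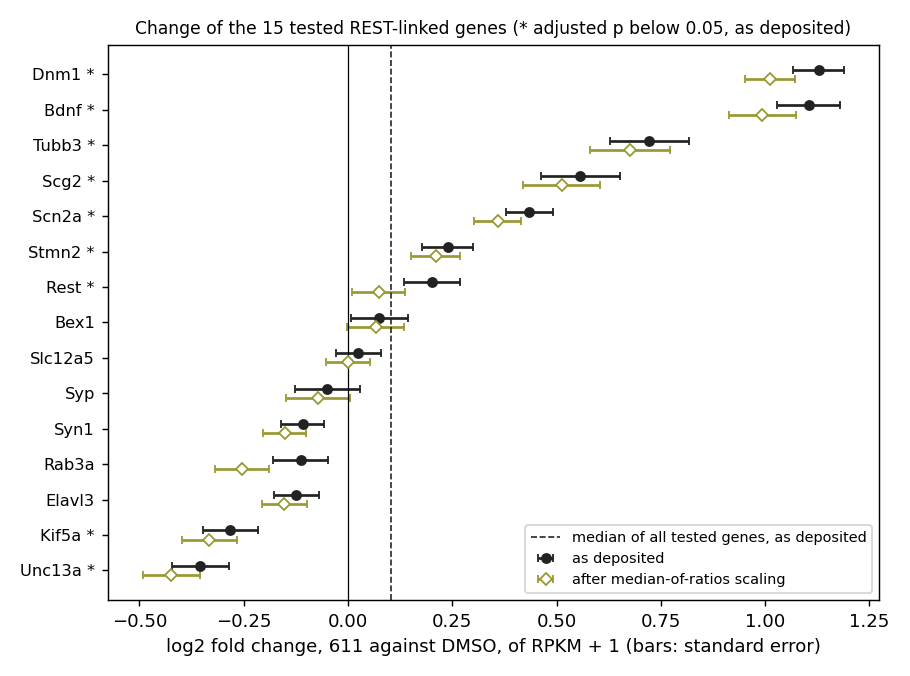
Log2 fold change of RPKM + 1 with its standard error for the 15 tested genes, 611 against DMSO. Values are as deposited (filled circles) and after median-of-ratios scaling (open diamonds). The dashed line is the median of all tested genes as deposited, and a star marks a limma adjusted p below 0.05. On this scale Dnm1 and Bdnf lie furthest to the right at 1.13 and 1.10, and Unc13a furthest to the left at -0.35. Scaling takes Rest from 0.20 to 0.07. By ratio of mean RPKM, Tubb3 (5.82) and Scg2 (4.24) rose more than Bdnf (2.84) and Dnm1 (2.79).

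Other genes reported as REST targets were also mixed in direction. Of 26 such genes 18 were too low to test and 7 were at 0 in all libraries. Of the 8 tested 3 rose and 3 fell, and the median log2 fold change was 0.02. These are 37.5% higher and 37.5% lower, beside 41.6% and 17.7% of all tested genes. Mapk8ip1, a JNK scaffold protein, rose from 2.19 ± 0.190 to 6.12 ± 0.738 RPKM, a ratio of 2.79 (limma adjusted p = 7.1e-06). The adhesion gene L1cam rose from 0.461 ± 0.00725 to 0.885 ± 0.163 RPKM (limma adjusted p = 0.0024). The 3 lower genes were Chrnb2, a nicotinic receptor subunit, which fell from 0.813 ± 0.0619 to 0.438 ± 0.0298 RPKM (limma adjusted p = 9.6e-04), and Ptprn and Nrcam, which ended at 0.0943 ± 0.022 and 0.0906 ± 0.0381 RPKM. Nrcam lost its call with the replicate number as a block (limma adjusted p 0.0471 without it and 0.0692 with it). The lower count was 1 without 611 replicate 3 and 1 without DMSO replicate 3.

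Genes of secretion outside the set included Hid1, which had the largest log2 fold change in any of the lists. Of 26 genes of regulated secretion found in the tables, 11 were tested, of which 8 rose and 1 fell. These are 72.7% higher and 9.09% lower, beside 41.6% and 17.7% of all tested genes. The median log2 fold change was 0.34, against 0.10 for all genes. Hid1, needed to form dense-core granules, rose from 0.256 ± 0.0544 to 5.91 ± 0.577 RPKM, a ratio of 23.1 (limma adjusted p = 2.6e-07). Cpe, a carboxypeptidase that processes peptide hormones, rose from 73.7 ± 4.94 to 169 ± 7.38 RPKM, and Cplx2, a complexin, from 3.95 ± 0.862 to 8.11 ± 0.919. The other 15 were not tested, and 7 of them, among them Syt1, Rims1 and Pcsk1, were at 0 in all libraries. Hid1 was already known as a strong rise when this list was drawn up, so its place in the list is no independent evidence. The lower count was 0 without 611 replicate 1 or 2 and without DMSO replicate 2 or 3.

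In several families relatives with a wide tissue range stood far above the neuronal member. Dnm2 stood at 23.6 ± 1.13 RPKM with DMSO, against 1.98 for Dnm1, and Kif5b at 23.0 ± 0.9, against 0.675 for Kif5a. Snap23 stood at 15.4 ± 0.903 RPKM and Elavl1 at 10.9 ± 0.296, where Snap25 and Elavl4 were at or near 0. Of 33 relatives tested 15 rose and 4 fell, 45.5% and 12.1% beside 41.6% and 17.7% of all tested genes, with a median log2 fold change of 0.12. After scaling 11 were higher and 7 lower.

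Some relatives moved with the member and some against it. Stmn1, the stathmin of dividing cells, rose from 30.2 ± 0.217 to 86.6 ± 4.16 RPKM, a ratio of 2.87 beside 2.59 for Stmn2 (limma adjusted p = 1.8e-07 for Stmn1). Tubb5, the common beta-tubulin, rose from 108 ± 7.06 to 228 ± 8.67 RPKM, while Tubb4b was at 159 ± 4.69 and 155 ± 2.65. Kif5c, another neuronal kinesin-1 chain, rose from 0.134 ± 0.0143 to 0.591 ± 0.0508 RPKM (limma adjusted p = 7.9e-05) where Kif5a fell. Bex3 rose from 17.1 ± 1.87 to 40.1 ± 1.48 RPKM. Kif5c and Tubb4b were picked here after their values were seen.

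**Figure D3:**
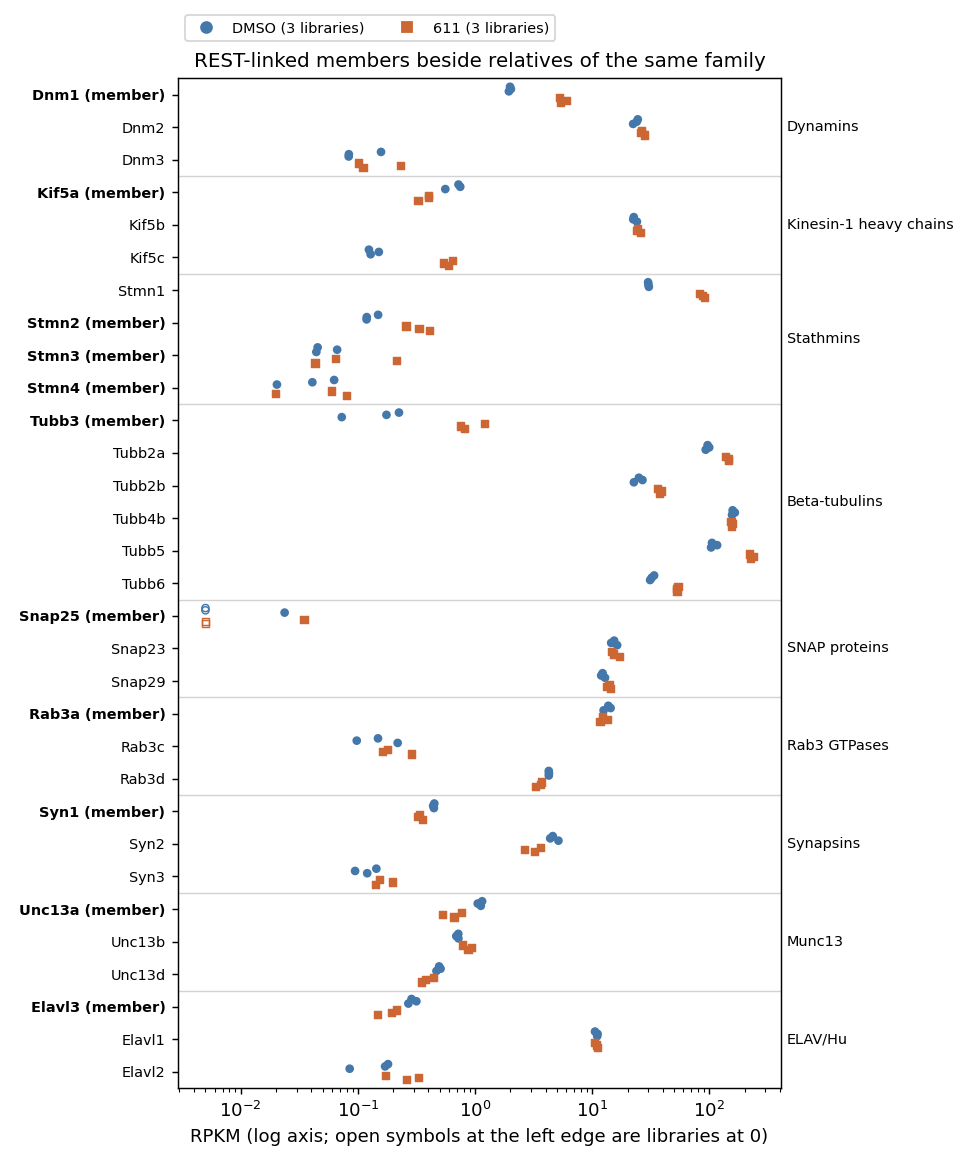
RPKM on a log axis, by library, of members (bold) and relatives from 9 gene families; circles are the 3 DMSO and squares the 3 611 libraries. Dnm2, Kif5b, Stmn1, Snap23 and Elavl1 lie far to the right of the neuronal members of their families, and Rab3a at 13.5 RPKM lies above Rab3d.

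Markers of the cells in the dish moved in the same libraries. The counts below stand beside 41.6% of all tested genes called higher and 17.7% called lower. All 8 tested fat cell markers fell (median log2 fold change -0.68; summed level 28029 to 29310.2 RPKM with DMSO and 14470 to 16010 with 611), with Ucp1 at 0. All 7 tested fibroblast and progenitor markers rose (median 1.28; 226 to 248 and 607 to 626 RPKM), with Dpp4 at 0. Of 15 neuron markers outside the set 3 were tested and all 3 rose, Map2, Eno2 and Camk2a. The dendritic protein gene Map2 went from 2.64 ± 0.073 to 8.59 ± 0.733 RPKM, and the enolase gene Eno2 from 0.998 ± 0.188 to 2.56 ± 0.541. Camk2a went from 0.0534 ± 0.0119 to 0.286 ± 0.0425 RPKM. It reached 0.1 RPKM only in the 611 libraries, so it entered the test through the group where it was high. The summed level of all 15 was 3.60 to 4.14 RPKM with DMSO and 10.3 to 12.4 with 611. Map2 and Eno2 made up most of this sum in both groups, so it does not describe the other markers of the list. Of the untested neuron markers Th, Chat, Neurod1 and Neurog2 were at 0 in all libraries, and Rbfox3 and Dcx were at or below 0.0167 RPKM. Uchl1 was at 0 with DMSO and at 0.0427, 0.0847 and 0.107 RPKM with 611. The groups overlapped for the other untested markers of this list. Glia markers had 1 of 5 tested genes higher, Slc1a3, a call that ended after scaling (limma adjusted p = 0.790), with Olig2 at 0. Macrophage markers summed to at most 0.0947 RPKM, with Ptprc at 0. Endothelial markers summed to 0.0875 to 0.232 RPKM with DMSO and 0.279 to 0.323 with 611; the 1 tested, Tek, rose from 0.0852 ± 0.0157 to 0.254 ± 0.0216 RPKM (limma adjusted p = 0.0075), with Cdh5 and Kdr at 0. Of 2 tested muscle markers Acta1, skeletal muscle actin, fell from 2.63 ± 0.548 to 0.273 ± 0.079 RPKM (limma adjusted p = 5.5e-06), with Myod1, Myog and Ckm at 0. In bulk RNA a change in the share of a cell type and a change of RNA per cell cannot be told apart, and the part of these markers in the changes of the neuronal genes was not tested.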

How the data were processed

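The authors deposited 1 RPKM table per library, with 28430 RefSeq transcripts. Per the submitters' processing notes, TopHat2 2.0.12, TopHat, SAMtools and build mm9 were used. The program behind the RPKM values and its strand setting: not given in the sources used here. Symbols came from a RefSeq table of GRCm38.p6 (27789 accessions matched), and the transcript with the highest mean stood for its gene. Library totals were those at which the largest share of low values came out as whole reads at GENCODE M21 lengths (35.8% to 36.6% of values, within 0.02 reads); reads and read pairs cannot be told apart in them. Reads of low members used the length nearest to the annotated one that made them whole in every library, and are estimates; for Syt7 that length was 6321 bases against 1605, so its reads are not given.

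limma 3.58.1 (R 4.3.3) with trend was fitted across all genes on log2(RPKM + 1), which understates changes of low genes, with group as the only term, a filter of 0.1 RPKM in at least 3 libraries, and Benjamini-Hochberg adjustment over 13829 genes. It was tested on simulated data. Alternatives were 0.1 in place of 1, no filter, a filter of 1 RPKM, median-of-ratios scaling, the sum of transcripts, no trend, the replicate block and leaving out each library. Same-numbered libraries deviated together from their group means (correlations across genes 0.296, 0.298 and 0.177), so the replicate block took the numbers as pairs. The main fit, which gave the calls, did not use the pairs. The genes and lists were chosen with earlier results of these data known. Named genes were all members, and from each list up to 3 called genes with the largest change and at least 0.5 RPKM. Kdm1a and the CoREST genes were added, and others are said to be picked later or complete a count. Of 192 other list entries 188 were found, and the rest were not analysed here; some genes counted in the lists are not reported here by name. Protein sequences were not used.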

Additional observations from a re-analysis of the deposited data

How the results depend on the processing

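The count of 7 members called higher was 6 after median-of-ratios scaling and 6 with no filter, in both cases without Rest, and 4 with a filter of 1 RPKM, under which only 6 of the 15 genes were left to test. The count of 2 called lower was 5 after scaling, 4 with no filter and 1 with a filter of 1 RPKM. With the replicate block the counts were 7 higher and 3 lower, the added gene being Rab3a, and no other member's call changed. The lower count was also 3 with no trend, by Elavl3, and with summed transcripts, by Syn1. Leaving out each library gave 6 to 7 higher and 2 lower. Scaling moved the calls over all genes from 5758 higher and 2451 lower to 3940 and 3961. Bdnf, Dnm1, Scg2, Scn2a, Stmn2, Tubb3, Kif5a and Unc13a kept their direction and their call under every alternative in which they could be tested. Under the filter of 1 RPKM, Scn2a entered only through the 611 libraries and Unc13a only through the DMSO libraries. In each case that was the group where the gene was high, so these calls under that filter add no support. Slc12a5, never called, changed sign after scaling (log2 fold change -0.00068), and Syp, never called, had a log2 fold change of 0.019 without 611 replicate 3 and from -0.12 to 0.02 over the libraries left out. Fabp4, a fat cell marker, lost its call with no filter (limma adjusted p = 0.0549). Depth limits most of the 18 untested genes, many with a few reads or none over all 6 libraries; Celsr3, with 181 reads, was left out by the filter on RPKM.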
